A study of Mus musculus with 8 samples.

Results

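Transforming growth factor β (TGF-β) signaling was followed through its core genes in the distal colon of wild-type (WT) mice and of mice that lack heat shock factor 1 (*Hsf1* null), before and after a colitis-based carcinogenesis protocol. The 10 genes were chosen by name: the ligands *Tgfb1*, *Tgfb2* and *Tgfb3*, the receptors *Tgfbr1*, *Tgfbr2* and *Tgfbr3*, and the intracellular mediators *Smad2*, *Smad3*, *Smad4* and *Smad7*. All 10 were found among the 15859 genes of the deposited count table, and all 10 passed the filter on low counts (a mean normalized count over 5), which left 14371 genes to test. *Tgfbr2* was singled out by the study from these same libraries, so its difference is not independent evidence.

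RNA from whole distal colon of 8 male mice was sequenced, with 2 mice in each of 4 groups. All mice were littermates of a BALB/c x 129SvEV line, either WT for *Hsf1* or carrying the germline *Hsf1* null allele in every cell, and the labels give the age of each as 10 weeks. The day 0 groups were untreated. The day 15 groups had received azoxymethane (AOM, a carcinogen) at 10 mg/kg into the peritoneum at 8 weeks of age and, from day 7, 1.5% dextran sulfate sodium (DSS, toxic to the epithelium) as drinking water for 5 days. The protocol in the labels ends directly after DSS, whereas the sample titles name day 15. Each library is 1 mouse.

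TGF-β ligands are secreted in a latent form, held by their own propeptide and by matrix proteins, and must be released before they can bind. The type II receptor, encoded by *Tgfbr2*, binds the active ligand and phosphorylates the type I receptor, encoded by *Tgfbr1*, which in turn phosphorylates SMAD2 and SMAD3. These join SMAD4, enter the nucleus and act on target genes, one of which is *Smad7*, an inhibitor that closes the loop. In the colon the pathway restrains epithelial growth and inflammation, and in fibroblasts it drives matrix production.

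Total counts were between 2553348 and 12440257 per library, and replicate 2 of both day 0 groups had the smallest libraries. Levels are given as CPM, which are counts scaled to a common library size after adjustment by the TMM method, and groups were compared with the quasi-likelihood test of edgeR, with p adjusted for all tested genes by the Benjamini-Hochberg method and given after the standard error (SE). A gene was called when its adjusted p was under 0.05 and its log2 fold change above 1 in either direction. Values of single mice are given as replicate 1, then replicate 2. *Hsf1*, the targeted gene, was at 36.5 to 50.4 CPM in the 4 WT mice and at 9.09 to 14.0 CPM in the 4 *Hsf1* null mice, where 33 to 170 reads were still counted. Colon epithelial markers summed to between 10791 and 23488 CPM, with none of the 10 at 0 in any library. Replicate 1 of WT day 0 stood apart from replicate 2 in part of the genes that TGF-β is known to induce, and also in B cell and T cell markers. *Thbs1*, thrombospondin 1, which can release latent TGF-β, was at 555 CPM in replicate 1 and 41.7 CPM in replicate 2. *Lox*, a collagen cross-linking enzyme named after its values were seen, was at 285 and 5.95 CPM. The results that this library moved most are therefore also given without it. The smallest libraries set the counting error of the less abundant members, since *Tgfb2* and *Tgfb3* had as few as 17 reads in 1 mouse.

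Gene positions follow the GENCODE M21 annotation of GRCm38 (mm10). The upstream sequences of *Tgfb1*, *Tgfbr1* and *Tgfbr2* are shown because *Tgfb1* and *Tgfbr2* are the called members with a matched promoter and a *Tgfbr1* promoter holds the one motif match. HSF1 is known to bind heat shock elements, which are alternating GAA and TTC units. RefSeq promoters on GRCm38.p6 were matched for 5 of the members, *Tgfb1*, *Tgfb2*, *Tgfbr1* (at 2 starts), *Tgfbr2* and *Smad3*. Each line gives the 250 bases before a transcription start, on the strand of the gene, and the capitals mark the only match found among the members. The *Tgfb1* sequence is chr7:25686752-25687001 (plus strand), the *Tgfbr2* sequence chr9:116175364-116175613 (minus strand), and that of the second, more downstream *Tgfbr1* start chr4:47385966-47386215 (plus strand).
*Tgfb1*: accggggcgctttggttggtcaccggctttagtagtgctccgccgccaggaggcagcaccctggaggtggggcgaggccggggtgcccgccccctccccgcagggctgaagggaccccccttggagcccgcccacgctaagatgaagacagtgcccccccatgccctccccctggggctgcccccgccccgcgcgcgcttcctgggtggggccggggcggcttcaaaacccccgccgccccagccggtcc
*Tgfbr2*: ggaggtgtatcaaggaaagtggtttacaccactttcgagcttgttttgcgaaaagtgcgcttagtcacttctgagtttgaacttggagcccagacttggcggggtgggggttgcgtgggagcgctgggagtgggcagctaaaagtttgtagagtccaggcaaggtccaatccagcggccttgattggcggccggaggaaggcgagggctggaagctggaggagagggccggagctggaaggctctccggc
*Tgfbr1*, second start: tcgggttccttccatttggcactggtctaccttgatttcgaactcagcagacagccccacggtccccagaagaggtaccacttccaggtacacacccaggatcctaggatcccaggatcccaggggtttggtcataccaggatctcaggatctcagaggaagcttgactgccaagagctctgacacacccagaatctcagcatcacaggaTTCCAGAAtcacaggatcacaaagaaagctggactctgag
The letters searched, on both strands, were the pairs GAANNTTC and TTCNNGAA, both triples of alternating units at the same spacing, which contain both pairs, and the SMAD palindrome GTCTAGAC. Over all 32851 RefSeq promoters of 300 bases (250 before and 50 after the start), 7.86% held GAANNTTC, 8.52% held TTCNNGAA, 0.603% held each triple and 0.213% held the SMAD palindrome. Of the 6 promoters of the members, 1 held TTCNNGAA, that of the second *Tgfbr1* start, with its first base 40 bases before the start (position -40). No other searched letters were found in these windows. GC content of the 300-base promoters was 77.0% for *Tgfb1*, 59.0% for *Tgfbr2* and 52.0% for the second *Tgfbr1* start, against a median of 52.7% over all promoters. No binding data were analysed, and a match of letters is not a binding site.

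**Figure D1:**
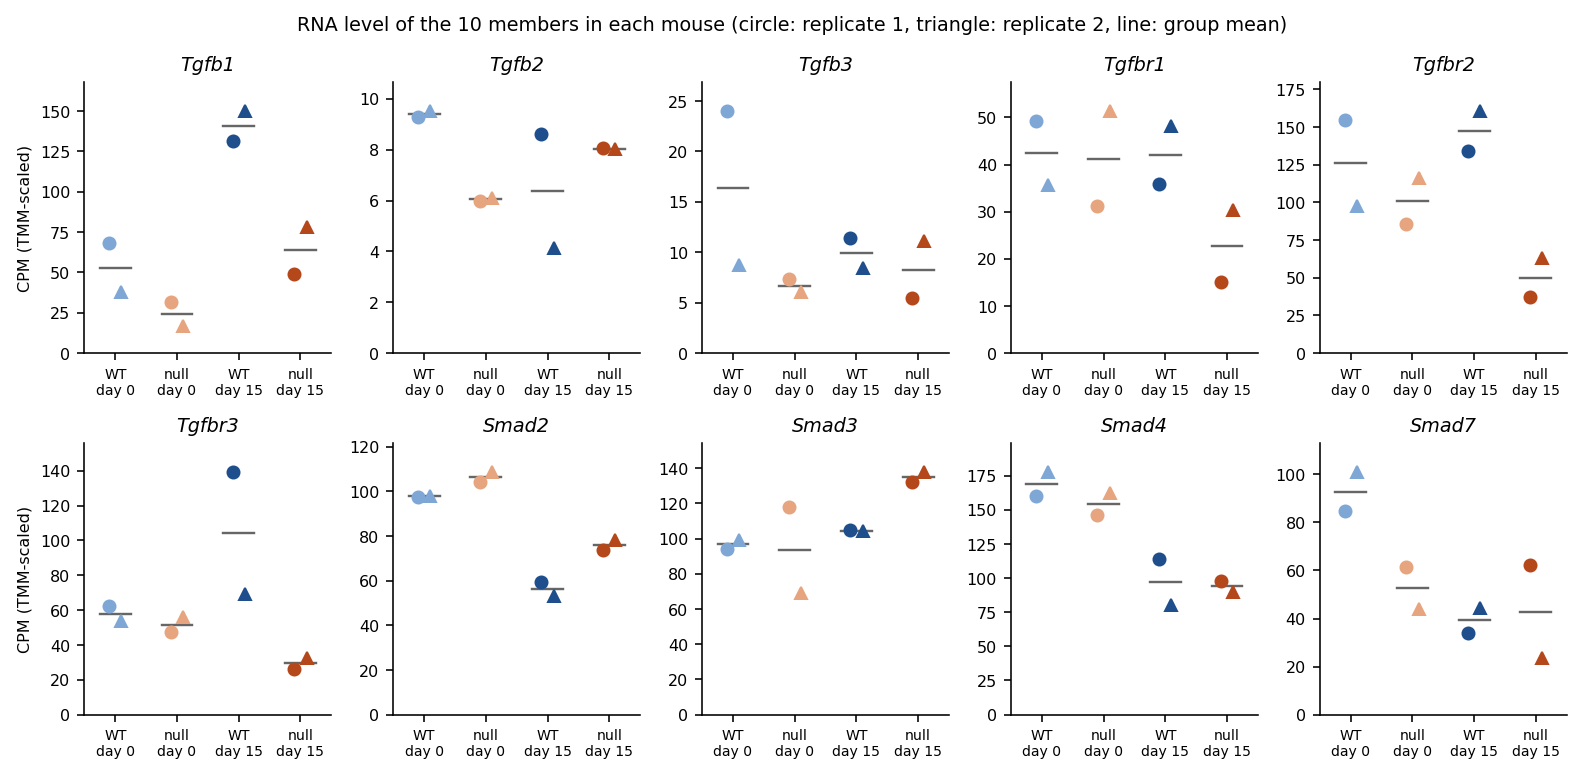
Level of each of the 10 genes in every mouse, in CPM on a linear axis from 0, by group (circle, replicate 1; triangle, replicate 2; line, group mean). *Tgfb1* was highest in both WT mice at day 15 (131 and 149.99 CPM), and *Tgfbr1*, *Tgfbr2* and *Tgfbr3* were lowest in both *Hsf1* null mice at day 15.

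Among the ligands, *Tgfb1* was the one called by edgeR, between days in *Hsf1* null mice. *Tgfb1* (ENSMUSG00000002603, chromosome 7, 25687002 to 25705077) encodes TGF-β1, the main isoform made by immune cells. Its level was 68.1 and 37.7 CPM in the WT animals against 31.7 and 16.9 CPM in the *Hsf1* null animals at day 0. The day 15 levels were 131 and 149.99 CPM in the WT animals against 49.0 and 78.3 CPM in the *Hsf1* null animals. The 2 WT mice at day 15 were above all other mice, the groups of each genotype did not overlap between days, and the genotypes did not overlap at either day. From day 0 to day 15, *Tgfb1* rose in *Hsf1* null mice by a log2 fold change of 1.35 (SE 0.38, adjusted p = 0.0454 in edgeR). In WT mice the log2 fold change was 1.39 (SE 0.38), and its adjusted p of 0.0502 in edgeR missed the threshold. The difference between these changes was 0.04 on the log2 scale, with a 95% interval from -1.15 to 1.22. WT mice had more *Tgfb1* RNA than *Hsf1* null mice by 1.14 (SE 0.37, adjusted p = 0.111) at day 15 and by 1.10 (SE 0.38, adjusted p = 0.775) at day 0 on the log2 scale, neither past the threshold in edgeR, while DESeq2 called the difference at day 15 (adjusted p = 0.0389). Under the alternatives the day 0 difference lay between 0.60 and 1.67, and the change between days in WT mice between 1.04 and 1.90. Over 17 alternatives the rise in *Hsf1* null mice was called in 10, with adjusted p between 0.00773 and 0.322. It was lost without replicate 2 of *Hsf1* null day 0 (log2 fold change 1.01), either WT day 15 library (1.35 for both), either *Hsf1* null day 15 library (1.65 and 0.97) or both small day 0 libraries (0.98), and with a replicate block (adjusted p = 0.0552). The difference in WT mice was called in 8 of 17 alternatives, with adjusted p between 0.00495 and 0.283.

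*Tgfb2* and *Tgfb3* had low counts, and none of their differences passed the threshold. *Tgfb2* (ENSMUSG00000039239, chromosome 1, 186622792 to 186705989), which encodes an isoform known for its part in development, was at 9.31 and 9.52 CPM in the WT animals against 5.99 and 6.11 CPM in the *Hsf1* null animals at day 0. By day 15 it stood at 8.61 and 4.12 CPM in the WT animals against 8.06 and 8.02 CPM in the *Hsf1* null animals. The 2 WT mice exceeded both *Hsf1* null mice at day 0, whereas at day 15 the WT mice lay on either side of them. *Tgfb3* (ENSMUSG00000021253, chromosome 12, 86056745 to 86079041), which encodes an isoform made by mesenchymal cells, was at 24.0 and 8.73 CPM in the WT animals against 7.30 and 6.11 CPM in the *Hsf1* null animals at day 0. In treated mice its level was 11.4 and 8.44 CPM in the WT animals against 5.43 and 11.1 CPM in the *Hsf1* null animals. The genotypes overlapped at day 15, and at day 0 replicate 1 of WT stood 2.75 times above replicate 2. The log2 fold change of *Tgfb3* between genotypes at day 0 was 1.31 (SE 0.54, adjusted p = 0.775 in edgeR), and without replicate 1 of WT day 0 it was 0.36 (adjusted p = 1). Exons of *Tgfb2* overlap *Gm29491*, and exons of *Tgfb3* overlap *Ttll5*, *Gm37804* and *Gm48008*, all on the opposite strand. The strand setting of the counting is not given in the sources used here, so reads from these genes cannot be told apart.

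Between genotypes at day 15, edgeR called the receptors *Tgfbr2* and *Tgfbr3*. *Tgfbr2* (ENSMUSG00000032440, chromosome 9, 116084293 to 116175360) encodes the type II receptor, which binds the ligand. Its level was 155 and 97.6 CPM in the WT animals against 85.8 and 116 CPM in the *Hsf1* null animals at day 0. The day 15 levels were 134 and 161 CPM in the WT animals against 37.2 and 62.8 CPM in the *Hsf1* null animals. The genotypes overlapped at day 0, and at day 15 both *Hsf1* null mice were below every other mouse. *Tgfbr2* was higher in WT than in *Hsf1* null mice at day 15 by a log2 fold change of 1.56 (SE 0.33, 2.94-fold, adjusted p = 0.0388 in edgeR). At day 0 the same difference was 0.33 (SE 0.32, adjusted p = 0.879). Between days, the log2 fold change was -1.01 (SE 0.33, adjusted p = 0.0678) in *Hsf1* null mice and 0.22 (SE 0.32, adjusted p = 0.698) in WT mice. The difference between these changes, 1.22 (SE 0.46), had an unadjusted p of 0.0236 and an adjusted p of 0.510 in edgeR, so the effect at day 15 was not shown to differ from that at day 0. The call at day 15 held in 9 of 17 alternatives, with adjusted p between 0.000602 and 0.230. It was lost without either *Hsf1* null day 0 library (log2 fold change 1.56 for both), either WT day 15 library (1.68 and 1.42), replicate 1 of *Hsf1* null day 15 (1.22) or both small day 0 libraries (1.57), with a replicate block (adjusted p = 0.0501), and when fitted on the 4 day 15 libraries alone (adjusted p = 0.0947).

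*Tgfbr3* (ENSMUSG00000029287, chromosome 5, 107106570 to 107289629) encodes betaglycan, a co-receptor that presents ligand to the type II receptor. Its level was 62.4 and 53.6 CPM in the WT animals against 47.3 and 56.0 CPM in the *Hsf1* null animals at day 0. By day 15 it stood at 139 and 69.2 CPM in the WT animals against 26.4 and 32.7 CPM in the *Hsf1* null animals. Both WT mice at day 15 were above, and both *Hsf1* null mice below, every untreated mouse, and the treated WT mice differed widely from each other. Exons of *Tgfbr3* overlap *Gm43422* on the same strand, so their reads may have been split by the counting. *Tgfbr3* was higher in WT mice at day 15 by a log2 fold change of 1.82 (SE 0.34, 3.52-fold, adjusted p = 0.0274 in edgeR), the smallest p among the members. The same difference was 0.18 (SE 0.33, adjusted p = 0.946) at day 0. Between days the log2 fold change was 0.84 (SE 0.33, adjusted p = 0.132) in WT mice and -0.80 (SE 0.33, adjusted p = 0.129) in *Hsf1* null mice. The WT value was 0.25 (adjusted p = 0.684) without replicate 1 of WT day 15 and 1.26 (adjusted p = 0.0900) without replicate 2. The difference between these changes was 1.64 (SE 0.47, unadjusted p = 0.00567, adjusted p = 0.424 in edgeR). The call at day 15 held in 11 of 17 alternatives (adjusted p between 8.88e-05 and 0.177), and without replicate 1 of WT day 15 the log2 fold change was 1.23 (adjusted p = 0.0716). It was also lost without either *Hsf1* null day 0 library (1.82 for both), without replicate 1 of *Hsf1* null day 15 (1.66), without both small day 0 libraries (1.83) and when fitted on the 4 day 15 libraries alone (1.80).

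*Tgfbr1* (ENSMUSG00000007613, chromosome 4, 47353222 to 47414931) encodes the type I receptor kinase that phosphorylates SMAD2 and SMAD3. Its level was 49.2 and 35.7 CPM in the WT animals against 31.2 and 51.4 CPM in the *Hsf1* null animals at day 0. In treated mice its level was 35.8 and 48.2 CPM in the WT animals against 15.04 and 30.5 CPM in the *Hsf1* null animals. As with the other 2 receptors, both *Hsf1* null mice at day 15 were below all other mice. The log2 fold change between genotypes at day 15 was 0.88 (SE 0.39, unadjusted p = 0.0464, adjusted p = 0.207 in edgeR), which did not pass the threshold. It was 0.45 (adjusted p = 0.644) without replicate 1 of *Hsf1* null day 15 and 1.48 (adjusted p = 0.0761) without replicate 2, the ends of its range over the alternatives. Replicate 1 of *Hsf1* null day 15 had the lowest level of each of the 3 receptors among the 8 mice.

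**Figure D2:**
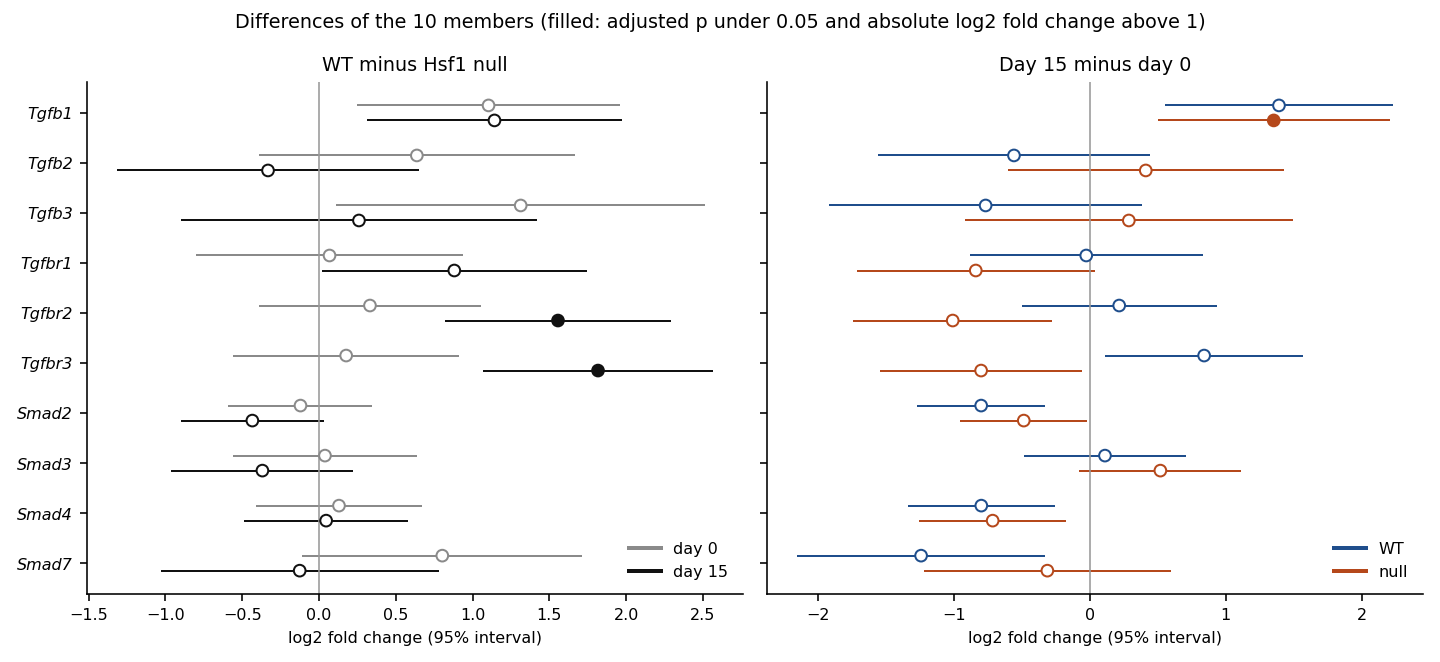
Log2 fold change of each gene with its 95% interval from edgeR, between genotypes (left, WT minus *Hsf1* null at day 0 in grey and day 15 in black) and between days (right, day 15 minus day 0 in WT in blue and *Hsf1* null in brown). Filled points passed the threshold: *Tgfbr2* (1.56) and *Tgfbr3* (1.82) between genotypes at day 15, and *Tgfb1* (1.35) between days in *Hsf1* null mice.

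At day 15 the SMAD genes had smaller fitted differences between genotypes than the receptors, and none was called by edgeR in any comparison. *Smad2* (ENSMUSG00000024563, chromosome 18, 76241580 to 76310963), a receptor-activated SMAD, was at 97.6 and 98.0 CPM in the WT animals against 104 and 108 CPM in the *Hsf1* null animals at day 0. The day 15 levels were 59.3 and 53.1 CPM in the WT animals against 73.8 and 78.0 CPM in the *Hsf1* null animals. No 2 groups overlapped, with the order *Hsf1* null day 0, WT day 0, *Hsf1* null day 15 and WT day 15 from high to low. Its log2 fold change from day 0 to day 15 in WT mice was -0.80 (SE 0.21), with an adjusted p of 0.0474 in edgeR but a fold change below the threshold of 1. In *Hsf1* null mice the change was -0.49 (SE 0.21, adjusted p = 0.142).

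*Smad4* (ENSMUSG00000024515, chromosome 18, 73639009 to 73703780), the partner of the receptor-activated SMADs, was at 160.0 and 177 CPM in the WT animals against 146 and 162 CPM in the *Hsf1* null animals at day 0. By day 15 it stood at 114 and 80.0 CPM in the WT animals against 97.7 and 90.1 CPM in the *Hsf1* null animals. All 4 treated mice were below all 4 untreated mice, and the genotypes overlapped at both days. The log2 fold change between days was -0.80 (SE 0.24, adjusted p = 0.0693) in WT mice and -0.71 (SE 0.24, adjusted p = 0.0758) in *Hsf1* null mice, neither past the threshold for the adjusted p in edgeR nor beyond the log2 fold change of 1 that a call needs. Between genotypes at day 15 the difference was 0.05 on the log2 scale, with a 95% interval from -0.49 to 0.58.

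*Smad3* (ENSMUSG00000032402, chromosome 9, 63646767 to 63757994), the other receptor-activated SMAD, was at 94.2 and 99.2 CPM in the WT animals against 118 and 69.0 CPM in the *Hsf1* null animals at day 0. In treated mice its level was 105 and 104 CPM in the WT animals against 132 and 138 CPM in the *Hsf1* null animals. The 2 *Hsf1* null mice at day 15 were the highest of the 8, and the log2 fold change of WT over *Hsf1* null was -0.37 (SE 0.27, adjusted p = 0.431 in edgeR). *Smad7* (ENSMUSG00000025880, chromosome 18, 75367529 to 75395935), the inhibitory SMAD, was at 84.9 and 101 CPM in the WT animals against 61.6 and 43.8 CPM in the *Hsf1* null animals at day 0. The day 15 levels were 33.9 and 44.5 CPM in the WT animals against 62.3 and 23.4 CPM in the *Hsf1* null animals. Both untreated WT mice were above every other mouse, and at day 15 the *Hsf1* null mice lay on either side of the WT mice. Its log2 fold change between days in WT mice was -1.24 (SE 0.41, adjusted p = 0.0864 in edgeR), short of the threshold, while DESeq2 called it. Between genotypes at day 0 it was 0.80 (SE 0.41, adjusted p = 0.794).

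Levels of different genes were compared per exon length, in CPM per kilobase (kb) of annotated exon. *Smad4* ranked highest in 6 of the 8 mice. *Tgfb1* ranked highest in replicate 2 of WT day 15 (29.7 against 21.6 CPM per kb for *Smad4*), and *Smad3* in replicate 2 of *Hsf1* null day 15 (24.8 against 24.3). *Tgfb3* ranked 9 and *Tgfb2* 10 in all 8 mice. The 3 ligands summed to 17.0 ± 7.43 CPM per kb (SD, n = 2, as for the values that follow) in WT and 7.84 ± 2.31 in *Hsf1* null animals at day 0, and to 31.9 ± 1.46 in WT and 16.5 ± 5.29 in *Hsf1* null animals at day 15. *Tgfb1* made up 62.4% ± 2.18 of that sum in WT and 60.1% ± 8.74 in *Hsf1* null animals at day 0, and 87.3% ± 4.23 in WT and 76.7% ± 0.337 in *Hsf1* null animals at day 15. Its share was thus above that of any untreated mouse in all 4 treated mice. The 3 receptors summed to 30.8 ± 7.33 CPM per kb in WT and 26.6 ± 5.77 in *Hsf1* null animals at day 0, and to 40.3 ± 3.88 in WT and 14.1 ± 4.57 in *Hsf1* null animals at day 15. *Tgfbr2* made up between 43.0% and 49.6% of the receptor sum in the group means, so that the lower sum in *Hsf1* null mice at day 15 was shared by all 3. With 2 mice per group an exact permutation test of single values cannot reach a small p, so these sums and shares are descriptions.

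**Figure D3:**
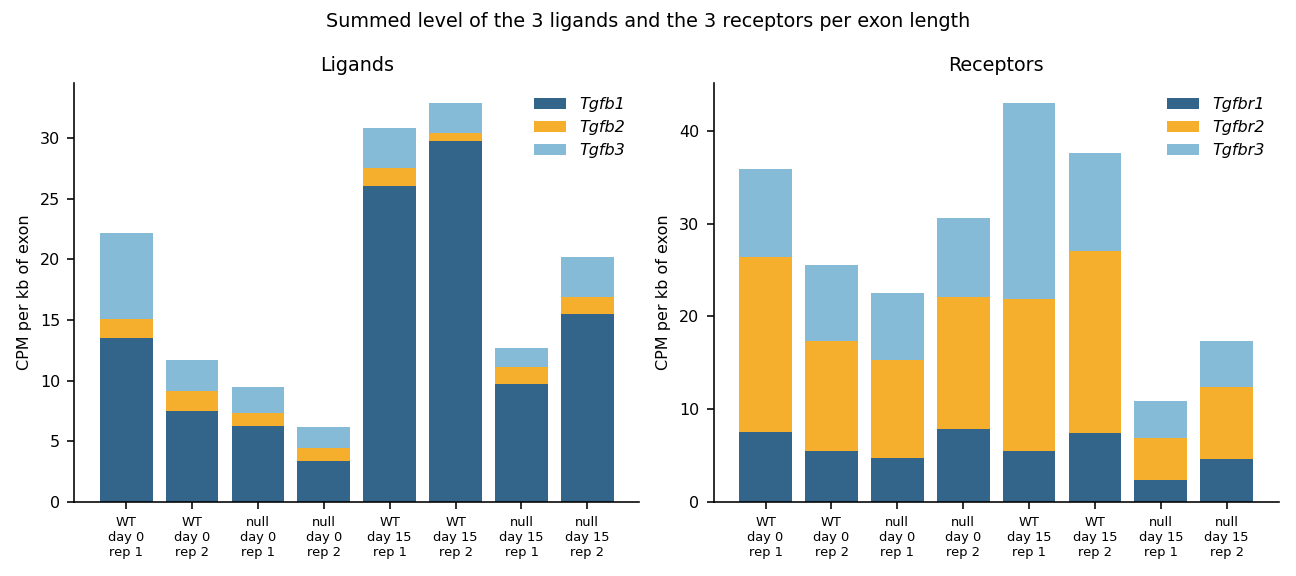
Summed level of the ligands (left) and receptors (right) in every mouse, in CPM per kb of exon, stacked by gene. *Tgfb1* took most of the ligand sum in each mouse and more of it at day 15 (group means 87.3% in WT and 76.7% in *Hsf1* null), and the receptor sum was lowest in the 2 *Hsf1* null mice at day 15.

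Counted over the 10 members, 2 differed between genotypes at day 15 (*Tgfbr2* and *Tgfbr3*), where 3.17% of all tested genes were called. There 4 members (the 3 receptors and *Tgfb1*) had an unadjusted p under 0.05 against 23.2% of all genes, and DESeq2 called 3, the third being *Tgfb1*, beside 1175 of all 14371 genes. In that comparison 6 of the 10 had no overlap between the genotypes, as did 54.8% of all tested genes, so that non-overlap was about as frequent among the members as in general. At day 0, 0 members and 0% of all genes were called by edgeR, 2 members (*Tgfb1* and *Tgfb3*) had an unadjusted p under 0.05 where 6.29% of all genes did, and DESeq2 called 0 members. Non-overlap at day 0 held for 5 of 10 members and 37.1% of all genes. In WT mice between days, edgeR called 0 members against 7.74% of all genes. There 5 members had an unadjusted p under 0.05 against 27.6% of all genes, DESeq2 called 2 (*Tgfb1* and *Smad7*) beside 1738 of all 14371 genes, and 7 members did not overlap against 62.5% of all genes. In *Hsf1* null mice between days 1 member was called against 11.8% of all genes, 5 had an unadjusted p under 0.05 against 32.6%, DESeq2 called 2 (*Tgfb1* and *Tgfbr2*) beside 2193 of all 14371 genes, and 8 did not overlap against 61.3%. When the changes between days were compared between genotypes, edgeR and DESeq2 each called 0 members, against 0.00696% of all genes in edgeR, and 2 members (*Tgfbr2* and *Tgfbr3*) had an unadjusted p under 0.05 against 8.61%. The median log2 fold change of the members was 0.15 between genotypes at day 15, 0.25 at day 0, -0.29 between days in WT and -0.40 between days in *Hsf1* null mice, beside 0.035, 0.011, 0.0046 and 0.052 over all genes. The comparisons share groups of mice and are not independent of each other.

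The machinery around the ligands and receptors was described by 8 lists of 75 genes, all tested. Between genotypes at day 15 the single called gene was *Eng*, which encodes endoglin, a co-receptor of endothelial cells. *Eng* was at 73.2 and 80.4 CPM in the WT animals against 16.9 and 29.9 CPM in the *Hsf1* null animals at day 15, and at 26.3 to 47.8 CPM in the 4 untreated mice. As for *Tgfbr3*, both treated WT mice were above every untreated mouse, while the *Hsf1* null range met that of the untreated mice, with a log2 fold change of 1.71 (SE 0.35, adjusted p = 0.0341 in edgeR). The call of *Eng* was lost without either *Hsf1* null day 0 library, either WT day 15 library, replicate 1 of *Hsf1* null day 15 or both small day 0 libraries (adjusted p up to 0.209). Of the 75 genes, 16 had an unadjusted p under 0.05 in this comparison, where 23.2% of all genes did. DESeq2 called 6 of the 75 and 1175 of the 14371 genes tested, so neither count stood out from the genes in general.

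Genes of ligand latency and activation, which store TGF-β in the matrix and release it, included 0 of 11 calls by edgeR or DESeq2 between genotypes at day 15, with 1 at an unadjusted p under 0.05. All 11 had a log2 fold change above 0 (median 0.86, against 52.1% of all genes above 0), and the smallest p belonged to *Ltbp1* (1.01, adjusted p = 0.183) and *Itgav* (0.92, adjusted p = 0.217). In the day 15 to day 0 comparison of WT mice *Nrros*, which holds latent TGF-β1 on myeloid cells, rose by 2.22 (adjusted p = 0.0453 in edgeR), from 22.9 and 6.75 CPM to 43.5 and 104 CPM. It was the 1 gene of 11 called there by edgeR, where 7.74% of all genes were called. In *Hsf1* null mice its log2 fold change between days was 1.50 (adjusted p = 0.107 in edgeR), and DESeq2 called it. At day 0 the list median between genotypes was 0.59 with replicate 1 of WT and -0.18 without it. The 2 smallest p at day 0, those of *Thbs1* (2.95) and *Ltbp2* (2.66), belonged to genes that were high in that mouse (both adjusted p = 0.775).

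Among the TGF-β target genes, 0 of 18 were called between genotypes at day 15 by edgeR, 6 had an unadjusted p under 0.05 (3 higher and 3 lower in WT) where 23.2% of all genes did, and DESeq2 called 2. *Cdkn2b*, a cell cycle inhibitor, was at 16.9 and 14.2 CPM in the WT animals against 62.6 and 28.2 CPM in the *Hsf1* null animals at day 15 (log2 fold change -1.54, adjusted p = 0.0506). *Col3a1*, a fibrillar collagen, was at 598 and 669 CPM in the WT animals against 89.1 and 318 CPM in the *Hsf1* null animals (1.64, adjusted p = 0.0881). These 2 targets thus lay in opposite directions, and the median of the list was 0.63 with 12 of 18 above 0, where 52.1% of all genes were above 0. From day 0 to day 15 in WT mice, where 4.27% of all genes were called lower, 3 of the 18 targets fell, *Ctgf* by 2.36, *Tagln* by 1.89 and *Cdkn2b* by 1.41 on the log2 scale (adjusted p = 0.0303, 0.0207 and 0.0430 in edgeR). *Ctgf* encodes a matricellular growth factor and *Tagln* a smooth muscle actin-binding protein. In *Hsf1* null mice, where 6.48% of all genes were called lower, edgeR called 1 target lower, *Postn*, which encodes periostin (from 134 and 314 CPM to 15.5 and 52.5 CPM, a log2 fold change of -2.71, adjusted p = 0.0198). DESeq2 called *Postn* lower between days in WT mice too. The median of the list between days in *Hsf1* null mice was 0.59, with 12 of 18 targets above 0. At an unadjusted p under 0.05, 3 targets were higher and 2 lower there, where 32.6% of all genes passed in either direction.

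Between days in WT mice the direction of the target list's median depended on replicate 1 of WT day 0. In that mouse 7 of the 18 targets (38.9%) had their highest level of the 8 mice, as did 7.60% of all tested genes, and 8 of 18 (44.4%) were over 2-fold above replicate 2 against 9.44% of all genes. So were 6 of 11 genes of latency and activation, 5 of 5 B cell markers and 4 of 8 T cell markers, but 0 of 10 colon epithelial markers. The gap was thus not particular to the targets. With replicate 1 of WT day 0, the median log2 fold change of the targets was 0.96 between genotypes at day 0 and -0.77 between days in WT mice. Without it, these were 0.39 and 0.41, and the called targets between days in WT were *Lox* and *Timp1* (higher at day 15) and *Tagln* (lower). Between genotypes at day 15 the median was 0.63 with and without it. Among the members, replicate 1 exceeded replicate 2 by 2.75 times for *Tgfb3*, 1.81 times for *Tgfb1* and 1.58 times for *Tgfbr2*.

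**Figure D4:**
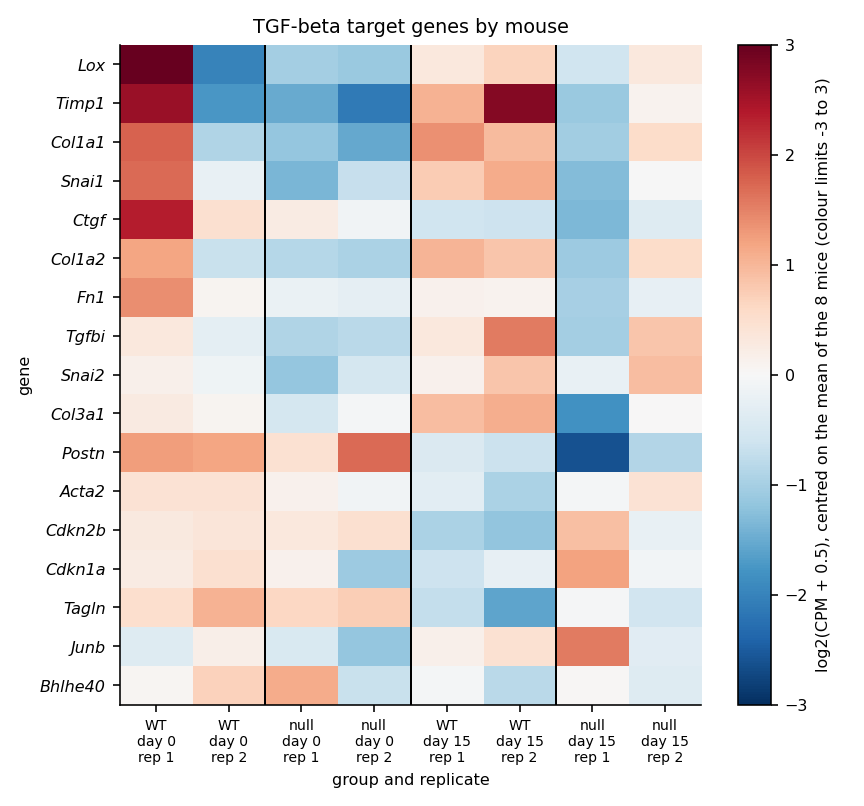
Level of 17 of the 18 TGF-β target genes in each mouse as log2(CPM + 0.5) centred on the mean of the 8 mice, ordered by the gap between the 2 WT mice at day 0 (red, higher; blue, lower; colours end at 3 in either direction). *Lox* and *Timp1* separate the WT mice at day 0, and the collagen genes are higher in both WT than in both *Hsf1* null mice at day 15.

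Among the other receptors of the superfamily, 4 of 10 fell between days in *Hsf1* null mice, where 11.8% of all genes were called in either direction and 6.48% were called lower. These were *Bmpr1a* (-1.64, adjusted p = 0.0153), *Acvr1* (-1.35, adjusted p = 0.0289), *Acvr2a* (-1.31, adjusted p = 0.0350) and *Bmpr2* (-1.18, adjusted p = 0.0347), which encode receptors for bone morphogenetic proteins (BMPs) and activins (log2 fold changes, edgeR). In the same comparison the endothelial markers had a median of -0.81 (0 of 7 called by edgeR or DESeq2, with 1 higher and 2 lower at an unadjusted p under 0.05) and the fibroblast markers one of -0.19, with 1 of 8 called (*Dcn*, lower). Of the colon epithelial markers 3 of 10 were called (*Cdx2* higher, *Slc26a3* and *Car1* lower), and their part and that of the other cell types was not tested. In WT mice edgeR called 0 of the 10 and DESeq2 1 (*Acvr1b*), 7 had an unadjusted p under 0.05 (2 higher and 5 lower at day 15) where 27.6% of all genes did, and the median was -0.90, beside -0.94 in *Hsf1* null mice. The difference between these changes was called for 0 of the 10 by edgeR and by DESeq2, with 1 at an unadjusted p under 0.05, and its smallest p belonged to *Eng* (1.39, adjusted p = 0.481) and *Bmpr1a* (0.77, adjusted p = 0.632). Of the inhibitors and feedback genes, *Pmepa1*, which encodes a protein that sequesters receptor-activated SMADs, rose between days in both genotypes, by 1.48 in WT and 1.54 in *Hsf1* null mice (adjusted p = 0.0333 and 0.0257). *Smurf2*, a ubiquitin ligase for the receptors (-1.19, adjusted p = 0.0192), and *Skil*, a SMAD repressor (-1.09, adjusted p = 0.0295), fell in *Hsf1* null mice. They were the 2 of 11 genes of this list called lower there, beside 6.48% of all genes. The change in WT minus that in *Hsf1* null mice was 0.48 for *Smurf2* and 0.74 for *Skil* (adjusted p = 0.710 and 0.613 in edgeR). These falls were thus not shown to differ between the genotypes.

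In the BMP branch, *Bmp2*, an epithelial and stromal BMP ligand, fell between days in WT mice from 110 and 160.0 CPM to 18.8 and 32.7 CPM (log2 fold change -2.39, adjusted p = 0.0245). In *Hsf1* null mice at day 15 it was at 114 and 36.9 CPM, which did not overlap the WT mice (-1.55 in WT minus *Hsf1* null, adjusted p = 0.105 in edgeR, and called in DESeq2). The BMP antagonists *Chrdl1* and *Chrdl2* changed in opposite directions in both genotypes. *Chrdl1* fell by 2.10 in WT and by 3.86 in *Hsf1* null mice, and *Chrdl2* rose by 3.75 and 2.42 (log2 scale, adjusted p = 0.0461, 0.0137, 0.0108 and 0.0307 in edgeR). *Grem1*, another BMP antagonist, was at 22.3 and 79.8 CPM in the WT animals against 1.55 and 6.01 CPM in the *Hsf1* null animals at day 15 (3.73, adjusted p = 0.0545 in edgeR, and called in DESeq2). Of the 4 BMP targets, *Id4* (-1.997) and *Id2* (-1.62) fell between days in *Hsf1* null mice (adjusted p = 0.0292 and 0.0140 in edgeR), where 6.48% of all genes were called lower. In WT mice their changes were -1.50 and -0.84 (adjusted p = 0.0738 and 0.0763 in edgeR), not called. The list median was -0.82 in *Hsf1* null and -0.70 in WT mice, and the difference between the changes was called for 0 of the 4 by edgeR. Of the 4 other SMADs, 0 were called in any comparison by edgeR and 1 by DESeq2 (*Smad9*, between days in *Hsf1* null mice), and *Smad6* had the smallest p of them between genotypes at day 15 (-0.51, adjusted p = 0.389).

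Each of the 21 calls among these lists was lost when at least 1 of the 8 libraries was left out. All 12 calls in *Hsf1* null mice were lost without replicate 2 of *Hsf1* null day 0, a setting in which edgeR called 0 of all genes between days in *Hsf1* null mice. The lists were chosen with earlier results known and were given no test of their own.

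In whole tissue, fewer cells of a type and less RNA per cell cannot be told apart, so marker lists of other cell types are given beside the results. Endothelial markers summed to 329 and 262 CPM in the WT animals against 75.03 and 156 CPM in the *Hsf1* null animals at day 15, with all 7 above 0 in log2 fold change (median 1.26) and *Cdh5* called. Fibroblast markers summed to 998 and 921 CPM in the WT animals against 242 and 678 CPM in the *Hsf1* null animals at day 15, with all 8 above 0 (median 0.80), none called by edgeR, 2 at an unadjusted p under 0.05 and *Dcn* called by DESeq2. Macrophage markers summed to 906 and 1119 CPM in the WT animals against 200.4 and 439 CPM in the *Hsf1* null animals, with *C1qa* and *C1qb* called. B cell markers summed to 436 and 959 CPM in the WT animals against 207 and 236 CPM in the *Hsf1* null animals, with all 5 above 0 (median 1.32) and 2 at an unadjusted p under 0.05. Without replicate 2 of WT day 15, 3 of the 5 were above 0 and their median was 0.44. These lists, and the T cell and neutrophil markers given further on, were thus on the side of *Tgfbr1*, *Tgfbr2*, *Tgfbr3* and *Tgfb1* at day 15, and their part in those differences was not tested. Within *Hsf1* null day 15, replicate 1 was more than 2-fold below replicate 2 in 7 of 8 fibroblast markers (87.5%, against 8.66% of all genes). The calls of macrophage and endothelial markers between genotypes at day 15 were all lost without it, without either *Hsf1* null day 0 library or without replicate 2 of WT day 15. The call of *Cdh5* was also lost without replicate 1 of WT day 15, and the call of *C1qb* without replicate 1 of WT day 15 or either WT day 0 library. Without replicate 1 of *Hsf1* null day 15, the median of the fibroblast markers between genotypes at day 15 was 0.18 and that of the endothelial markers 0.84, while the log2 fold change of *Tgfbr2* was 1.22 (adjusted p = 0.230) and that of *Tgfbr3* 1.66 (adjusted p = 0.177).

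For the genotypes at day 15, the lists on the other side were colon epithelial markers, with 14454 and 16233 CPM in the WT animals against 23488 and 20285 CPM in the *Hsf1* null animals, enteric neuron and glia markers, with 98.8 and 64.9 CPM in the WT animals against 159 and 101 CPM in the *Hsf1* null animals in sum, and smooth muscle markers, with 1677 and 881 CPM in the WT animals against 2730 and 3047 CPM in the *Hsf1* null animals. Of the epithelial and smooth muscle markers 0 of 10 and 0 of 7 had a log2 fold change above 0, but of the enteric markers 3 of 7 did (median -0.21, 0 called by edgeR or DESeq2, 1 lower at an unadjusted p under 0.05). *Smad2* and *Smad3* had the order of the sums. Between days, macrophage markers in WT mice went from 423 and 238 CPM to 906 and 1119 CPM (*C1qa*, *C1qb* and *C1qc* rose) and smooth muscle markers from 3443 and 5499 CPM to 1677 and 881 CPM (5 of 7 fell, led by *Actg2*, *Synm*, *Des* and *Cnn1*, where 4.27% of all genes were called lower). In *Hsf1* null mice macrophage markers went from 185 and 253 CPM to 200.4 and 439 CPM, which overlapped, while T cell markers went from 27.6 and 14.0 CPM to 53.5 and 89.3 CPM and B cell markers from 121 and 19.0 CPM to 207 and 236 CPM, which did not overlap. Neutrophil markers were at 126 and 513 CPM in WT mice at day 15 and at no more than 22.7 CPM in the other mice. *Ngp* was at 0 in all mice but the WT mice at day 15. Of the T cell markers, *Cd3e* rose in both genotypes and *Foxp3* in WT, and the list summed to 117 and 208 CPM in the WT animals against 53.5 and 89.3 CPM in the *Hsf1* null animals at day 15, against 14.0 to 57.7 CPM at day 0. B cell markers (0 of 5 called by edgeR or DESeq2 in the 5 comparisons) summed to between 19.0 and 230.2 CPM at day 0, and enteric neuron and glia markers to between 51.7 and 71.9 CPM. Without replicate 2 of WT day 0, 0 macrophage, T cell and smooth muscle markers were called between days in WT mice, and without replicate 2 of WT day 15 this held for the T cell and smooth muscle markers, with 1 macrophage marker still called. The part of these cell types in the differences between days was not tested.

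**Figure D5:**
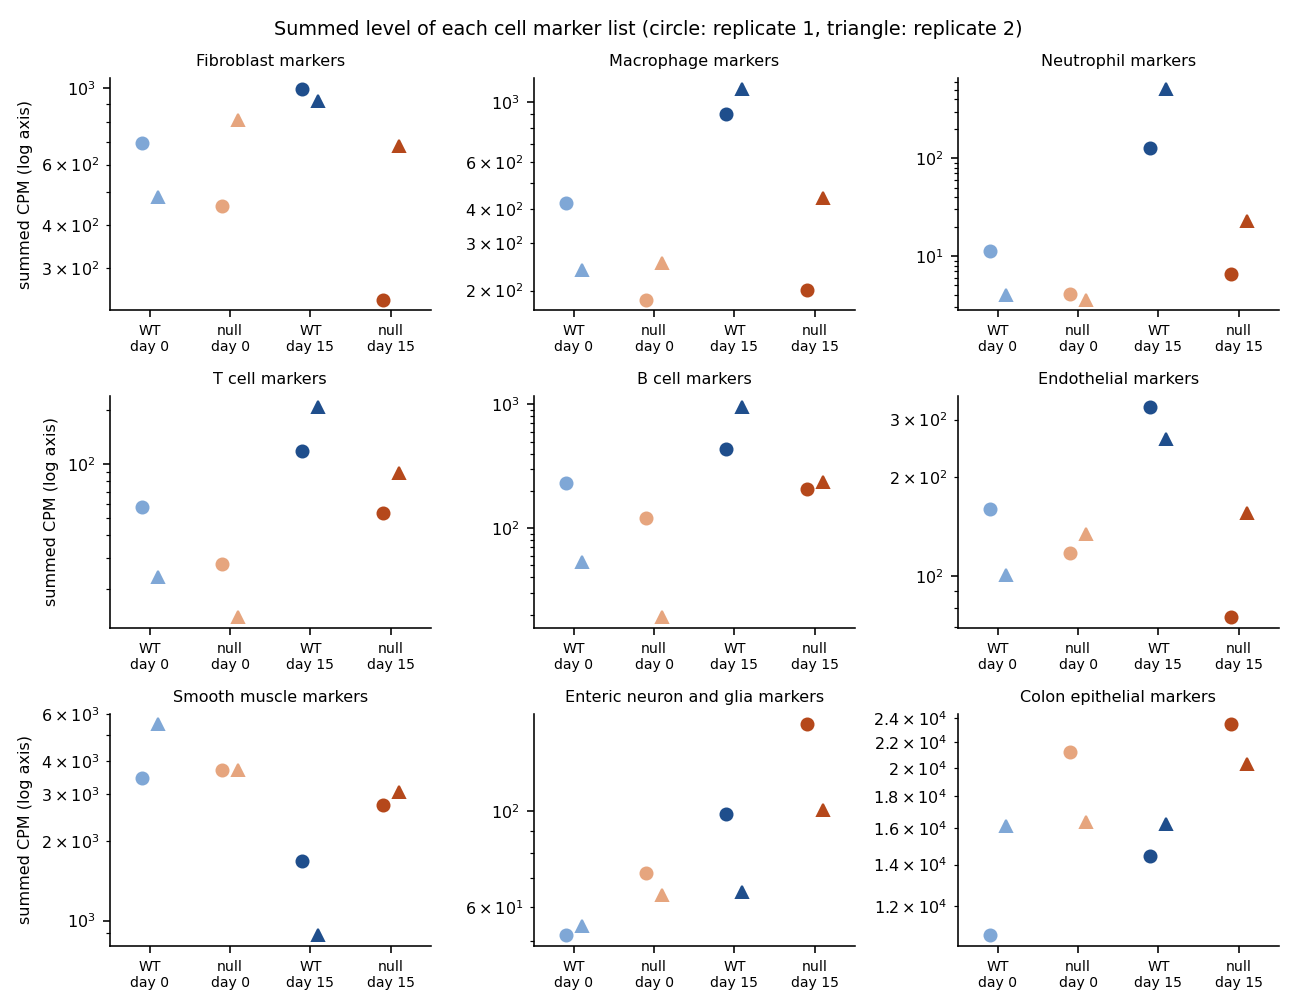
Summed CPM of each marker list in every mouse (log axis; circle, replicate 1; triangle, replicate 2). Fibroblast, macrophage and endothelial sums were higher in both WT than in both *Hsf1* null mice at day 15, and the epithelial and smooth muscle sums were lower.

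Genes with the pattern most like that of 3 members were sought by the root mean square (RMS) difference of log2 CPM, each gene centred on its mean over the 8 mice. The 5 nearest to *Tgfb1* were *Shmt2* (RMS difference 0.11), *Spi1* (0.16), *Vars*, *Ripk3* and *Evl* (0.22 each). *Spi1*, which encodes the myeloid transcription factor PU.1, was at 29.3 and 47.7 CPM in the WT animals against 12.4 and 19.5 CPM in the *Hsf1* null animals at day 15. The 5 nearest to *Tgfbr2* were *Ptprm* (0.094), *Zcchc11* (0.15), *Adcy3* (0.17), *Fndc3b* (0.18) and *Antxr1* (0.19). *Tgfbr1* was the 45th nearest gene to *Tgfbr2* (RMS difference 0.27) and *Tgfbr3* the 372nd. The 5 nearest to *Smad7* were *Foxo3* (0.22), *Ndst4* (0.22), *Zfyve1* (0.23), *Sipa1l3* (0.24) and *Stim1* (0.26). These values describe 8 libraries and were not tested.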

How the data were processed

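RNA-seq of 8 libraries of mouse distal colon was analysed, and the labels gave each sample its group and number. STAR v2.4.2a was used by the authors for alignment (mm10), and raw counts for each gene symbol were deposited. The counting program and gene annotation are not given in the sources used here. The authors also deposited a signal per gene, made by dividing each count by a DESeq2 size factor, which was used only to check the size factors.

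Counts were fitted in R 4.3.3 with edgeR 4.0.16 (quasi-likelihood test, TMM, prior degrees of freedom 5.97) in 1 model of the 4 groups, over 14371 genes with a mean normalized count above 5. P-values were two-sided and adjusted by the Benjamini-Hochberg method over all genes of a comparison. A call needed an adjusted p below 0.05 together with a log2 fold change beyond 1 in either direction, the thresholds of the study's methods. Total counts were between 2553348 and 12440257. The p-values rest on a spread between mice that was estimated over all 4 groups of 2 and drawn toward that of other genes. A comparison at day 15 thus also depends on the day 0 mice. Groups of 2 were not tested for outliers. The scripts were tested on simulated data.

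The members and lists were chosen with earlier results of these data known. Genes named are the members, *Hsf1*, up to 4 called genes per pathway list and comparison or else those with the smallest p, up to 4 called markers per list, and the genes nearest in pattern to *Tgfb1*, *Tgfbr2* and *Smad7*. *Lox* and *Timp1* were named after their values were seen, and 1 target gene, counted in its list, is not reported here by itself. Exon lengths come from GENCODE M21, and promoters from RefSeq (GRCm38.p6). Alternatives were DESeq2 1.42.0, its size factors in edgeR, no filter, filterByExpr, no fold threshold, a replicate block, thinned counts, only the groups compared, and each library left out in turn. A block with the numbers of the WT day 0 mice exchanged and a fit without both small day 0 libraries were added after the data were seen.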

Additional observations from a re-analysis of the deposited data

Results flagged for a closer look

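For *Tgfb2* and *Tgfbr3*, both day 15 mice lay on one side of both day 0 mice in WT and on the other side in *Hsf1* null, the mice of each day being different animals. *Tgfb2* was lower at day 15 in both WT mice and higher in both *Hsf1* null mice. The difference between the changes was -0.97 on the log2 scale (SE 0.64, unadjusted p = 0.160, adjusted p = 0.700 in edgeR's quasi-likelihood test), with counts between 17 and 99 per library, so it did not pass the test. *Tgfbr3* was higher at day 15 in both WT mice and lower in both *Hsf1* null mice, a difference of 1.64 (SE 0.47, unadjusted p = 0.00567, adjusted p = 0.424). It had an unadjusted p under 0.05 as 8.61% of all tested genes did, and it did not pass the adjusted threshold under any alternative.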

How the results depend on the processing

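Directions and calls were compared under 890 alternatives of the log2 fold changes of the members, of which 825 kept both, 21 kept the direction but lost the threshold, 17 passed it and 27 changed direction. Only *Tgfbr2* and *Tgfbr3* between genotypes at day 15 and *Tgfb1* between days in *Hsf1* null mice were called. All 21 losses therefore fell on these calls, and most values that kept both were never called. The setting without a fold threshold reused the main fit, so its directions could not change. In the genotype comparison at day 15, the number of members called was 2, 3 with DESeq2, 0 with only the groups compared and 0 without both small day 0 libraries, and ranged from 0 to 2 with each library left out. In WT mice between days it was 0, 2 with DESeq2, 1 each with DESeq2's size factors, no filter, filterByExpr, thinned counts, no fold threshold and only the groups compared, and 0 to 2 with each library left out. In *Hsf1* null mice between days it was 1, 2 with DESeq2, 0 without both small libraries, and 0 to 1 with each library left out. At day 0 and for the difference between the changes it was 0 under every alternative. Same-numbered mice are different animals and share only a number, and the correlation of their deviations from the group means was between -0.296 and 0.174. With the replicate block the members called numbered 1 (*Tgfbr3*) between genotypes at day 15, 0 in WT and 0 in *Hsf1* null mice between days, and with the WT day 0 numbers exchanged 2, 2 and 2. Counts of all genes called moved from 455 to 1175 (DESeq2), 6 (only the groups compared), 1314 (block with exchanged numbers), 18 (without both small libraries) and 12 to 873 (each library left out) between genotypes at day 15, and at day 0 from 0 to 17 with DESeq2 and 0 to 17 with each library left out. In WT mice they moved from 1112 to 1738 (DESeq2), 1856 (exchanged numbers), 4 (without both small libraries) and 92 to 1336, in *Hsf1* null mice from 1692 to 0 (without both small libraries) and 0 to 1891, and for the difference between the changes from 1 to 116 (DESeq2), 54 (exchanged numbers) and 0 to 50. Thinning turned the direction of *Tgfbr1* between genotypes at day 0 (-0.10) and between days in WT (0.030) and of *Tgfb1* for the difference between the changes (-0.11). Leaving out both small libraries turned *Smad3* between genotypes at day 0 (-0.34) and *Tgfbr2* between days in WT (-0.073). Other directions turned with 1 library left out, none of them in a comparison where edgeR called that member. Between genotypes at day 15 the ranges were -0.96 to 0.10 for *Tgfb2*, -0.17 to 0.87 for *Tgfb3*, -0.23 to 0.28 for *Smad4* and -0.67 to 0.74 for *Smad7*. At day 0 they were -0.26 to 0.46 for *Tgfbr1*, -0.044 to 0.60 for *Tgfbr2* and -0.29 to 0.49 for *Smad3*. Between days they were -1.26 to 0.18 for *Tgfb3*, -0.26 to 0.23 for *Tgfbr1* and -0.055 to 0.59 for *Tgfbr2* in WT mice, and -0.32 to 0.71 for *Tgfb3* and -1.18 to 0.23 for *Smad7* in *Hsf1* null mice. For the difference between the changes they were -0.52 to 0.54 for *Tgfb1* and -0.36 to 0.15 for *Smad4*. The cause of these shifts was not tested. *Tgfb2* and *Tgfb3* had the lowest counts of the members, with as few as 17 reads in 1 library.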
